A study of Rattus norvegicus with 9 samples.

Results

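PACAP (the peptide product of Adcyap1), its PAC1 receptor (Adcyap1r1) and the angiotensin II receptors AT1a (Agtr1a), AT1b (Agtr1b) and AT2 (Agtr2) were followed in the adrenal medulla of stressed rats. The genes were taken for their place in 2 signalling systems of the medulla, with earlier results of these data known. Every probe set of the array annotated to exactly 1 of the 5 symbols was kept, whatever its values. These were 5 of the 14217 genes named on the array and 11 of its 31099 probe sets, 20826 of which carried 1 gene symbol. There were 2 for Adcyap1, 4 for Adcyap1r1, 2 for Agtr1a, 1 for Agtr1b and 2 for Agtr2. The annotation joined 0 of them to a second gene.

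The study asked how gene expression in the adrenal medulla differs after single and after repeated immobilization, a restraint stress. The rats (Rattus norvegicus) were adults of 280 to 320 g. Some label fields speak of mouse or of brain tissue and were set aside. The control group was not stressed, the IMO_1x group was immobilized once for 2 h, and the IMO_6x group was immobilized for 2 h on each of 6 days. The rats were decapitated after the last session and both medullae were dissected. Each group had 3 Affymetrix arrays. Nothing states that the arrays came from separate animals, so the p-values cover only the spread between these samples, which may be technical. The strain and sex were not stated in the labels used.

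The medulla holds chromaffin cells, which secrete adrenaline and noradrenaline when the splanchnic nerve fires. That nerve releases acetylcholine and PACAP, and PACAP acts on PAC1, a receptor coupled to Gs and Gq, to raise cyclic AMP and calcium and to drive catecholamine secretion and synthesis during prolonged stress. Angiotensin II acts through AT1 receptors, which couple to Gq, and through AT2, which in many tissues opposes AT1 signalling. Rodents have a pair of AT1 genes, Agtr1a and Agtr1b, where humans have a single one, and the rat medulla is a known site of AT2.

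Intensities were deposited on a linear scale, scaled per array to an equal trimmed mean (2500.6 to 2501), and were compared as log2(value + 16) with limma. The arrays after 6 sessions stood apart in measures of RNA and array quality. The ratio of the 3′ to the 5′ actin probe sets was 1.45 to 2.15 in the control arrays, 1.57 to 1.99 after 1 session, and 231, 6.11 and 8.87 in IMO_6x replicates 1, 2 and 3. The 18 spike-in probe sets had mean log2 levels of 12.04 to 13.08, 11.96 to 13.46, and 17.52, 14.04 and 14.41 in the same order. IMO_6x replicate 1 correlated at only 0.544 to 0.7 with the other arrays. These values move with every comparison of the 6-session group, and their part in the results was not tested, so values without IMO_6x replicate 1 are given beside many of them. The summed intensity of 12 chromaffin cell markers was 317800 to 488300 in control arrays, 308800 to 582400 after 1 session and 1049000 to 2396000 after 6 sessions. That of 11 adrenal cortex markers was 414900 to 600500, 373000 to 890700 and 1254000 to 2177000, so both sums were higher on all 3 arrays after 6 sessions. These sums are led by the brightest genes and depend on the scaling. Of the chromaffin markers 5 rose and 0 fell, with a median log2 change of 1.05, but under quantile normalization 2 rose and the median was 0.14. Th (1.29) and Gata3 (0.81) were higher without passing. Slc18a1 (-1.12), Hand2 (-0.88), Syt1 (-0.58), Phox2a (-0.48) and Ddc (-0.15) were lower without passing. Without IMO_6x replicate 1, 6 chromaffin markers rose and 2 fell (Hand2 and Syt1). Of the cortex markers 7 rose and 1 fell (Nr0b1, -2.39, limma adjusted p 0.0363), with a median of 1.55, but under quantile normalization 3 rose, 1 fell and the median was -0.14. The other 5 marker lists (Schwann cells and glia, endothelium, smooth muscle and fibroblasts, leukocytes, cholinergic nerve) had summed intensities that overlapped between the control and IMO_6x arrays except endothelium, which was 57580 to 64900 in control arrays and 47990 to 54110 after 6 sessions. By the mean log2 level of each list, endothelium overlapped (12.16 to 12.28 against 11.38 to 12.21) and leukocytes did not (11.02 to 11.18 against 10.41 to 10.91). Of 7 leukocyte markers tested, 0 rose and 2 fell, Csf1r (-1.67, limma adjusted p 0.0253) and Aif1 (-0.84, 0.0449). Cd74 (0.53) and Cd163 (0.35) were higher without passing. The list's median was -0.84. Under quantile normalization it was -0.89, and 0 rose and 0 fell (Csf1r 0.121, Aif1 0.212). Without IMO_6x replicate 1, 1 rose (Cd74) and 3 fell. No marker was at 0, and the part of cell composition in the results below was not tested.

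The promoter windows of the ligand gene (Adcyap1), of 1 AT1 gene (Agtr1a) and of the AT2 gene (Agtr2) are shown, for the sequence upstream of the ligand and of receptors with opposing roles. Agtr1a was picked over Agtr1b with the motif matches below already known. The sequences are RefSeq windows of 300 bases on the rat build GRCr8 (250 before and 50 after the annotated start), written 5′ to 3′ on the gene's strand. Capitals mark a match to TGACG (the core of the cyclic AMP response element, here read as CGTCA on the other strand) or to TATAAA (the TATA box).
Adcyap1, chr9:120556424-120556723, minus strand: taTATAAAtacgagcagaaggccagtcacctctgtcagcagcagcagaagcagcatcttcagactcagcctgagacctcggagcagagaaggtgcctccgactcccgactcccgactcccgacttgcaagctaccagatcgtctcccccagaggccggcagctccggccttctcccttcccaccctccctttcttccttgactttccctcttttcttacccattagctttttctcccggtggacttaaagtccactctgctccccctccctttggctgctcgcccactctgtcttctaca
Agtr1a, chr17:34435383-34435682, minus strand: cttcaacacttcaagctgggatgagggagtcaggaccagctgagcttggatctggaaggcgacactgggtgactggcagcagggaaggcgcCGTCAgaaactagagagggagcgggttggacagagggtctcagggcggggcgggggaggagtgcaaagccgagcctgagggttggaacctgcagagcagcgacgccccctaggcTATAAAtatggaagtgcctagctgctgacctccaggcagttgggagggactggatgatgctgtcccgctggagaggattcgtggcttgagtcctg
Agtr2, chrX:116914070-116914369, plus strand: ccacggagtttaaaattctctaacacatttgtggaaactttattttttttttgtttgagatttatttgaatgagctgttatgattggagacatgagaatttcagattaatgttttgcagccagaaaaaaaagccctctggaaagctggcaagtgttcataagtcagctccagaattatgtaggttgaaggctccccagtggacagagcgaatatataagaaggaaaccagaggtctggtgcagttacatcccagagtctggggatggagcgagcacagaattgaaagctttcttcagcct
All 5 genes had a window. Both strands were searched for TGACG, for TGANTCA (the AP-1 site) and for AGAACA (part of the glucocorticoid response element), and TATAAA was added after the sequences were seen. The Adcyap1 window held TATAAA at 248 bases before the start, and its start lies 12623 bases inside the gene's annotated span. The Agtr1a window held CGTCA at 159 and TATAAA at 45 bases before the start. None of the 4 motifs was found in these letters for Agtr2, for Agtr1b (chr2:104849213-104849512, minus strand) or for Adcyap1r1 (chr4:85923921-85924220, plus strand). Of 33469 rat promoter windows of this length, 21.2% held TGACG, 7.33% TGANTCA, 20.7% AGAACA and 14.2% TATAAA. A match is a description of letters only.

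Of the 11 member probe sets, 8 were bright enough for the main test of 14578 probe sets. Both Adcyap1 probe sets and the Adcyap1r1 probe set 1368730_a_at were among the dimmest 30% and were taken from a fit of all 20826 probe sets with 1 symbol, which called 4.78%, 15.8% and 5.83% of them after 1 session, after 6 sessions and between 6 and 1. After 1 session, 0 of 8 members passed an adjusted p of 0.05, beside 7.98% of all probe sets tested. After 6 sessions, 1 rose (Adcyap1r1) and 1 fell (Agtr2) of 8, beside 24.1% of all probe sets (8.81% up and 15.3% down). In the comparison of 6 sessions with 1, 0 of 8 passed, beside 10.3%. At an unadjusted p under 0.05 the counts were 1, 4 and 2 of 8, against 3026, 5593 and 4250 of all 14578 probe sets. The share of members called after 6 sessions is therefore close to the background. Without a test, 2 of all 11 members lay above and 2 below the controls without overlap after 1 session (11.4% and 21.4% of all probe sets), 3 above and 1 below after 6 sessions (12.8% and 22.5%), and 0 above and 2 below the 1-session arrays after 6 (12.8% and 16.8%). The median log2 change of all probe sets tested was -0.12, -0.28 and -0.14 in the 3 comparisons, so the zero of a change depends on the scaling. In whole adrenal medulla, fewer cells of a type and less RNA per cell cannot be told apart. The dissected tissue also held cortex RNA, with mean log2 levels of the cortex markers of 14.67 to 15.14 in control arrays. Which cells gave the receptor signal was not tested.

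**Figure D1:**
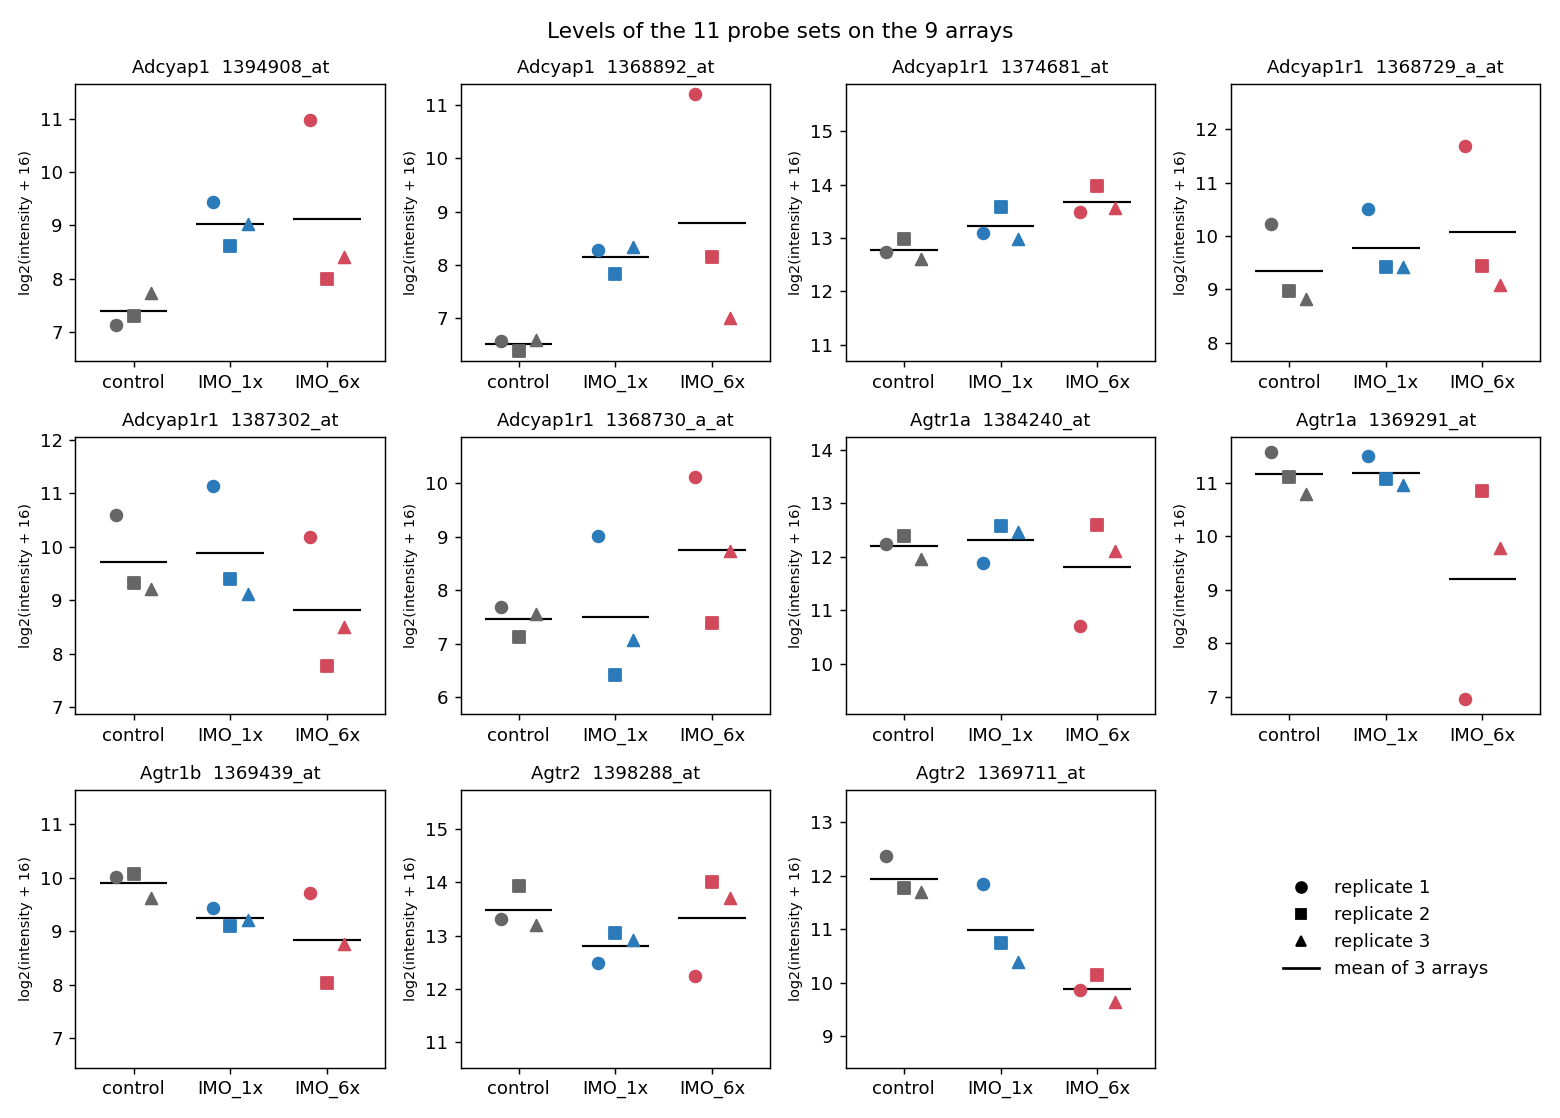
Level as log2(intensity + 16) (y axis) of each of the 11 probe sets on the 9 arrays, by group (x axis), with a symbol for each replicate number and a line for the mean of 3 arrays. Every panel spans the same number of log2 units. The IMO_6x arrays sit above all control arrays for both Adcyap1 probe sets and for Adcyap1r1 1374681_at, and below them for Agtr2 1369711_at.

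The mRNA of the ligand gene Adcyap1 read low in control arrays and higher on every stressed array, without passing the threshold as reported. Adcyap1 probe set 1394908_at had intensities of 125, 141 and 197 in control replicates 1, 2 and 3, of 674, 377 and 506 after 1 session, and of 1990.5, 239.6 and 325 after 6 sessions. The other probe set, 1368892_at, had 79.5, 67.8 and 80.4 in control arrays, 296, 212 and 308 after 1 session, and 2346, 267 and 113 after 6. For both, all stressed arrays lay above all control arrays, and IMO_6x replicate 1 lay far above the remaining arrays.

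After 1 session the log2 level of 1394908_at was 9.03 ± 0.41 (SD, n = 3) against 7.39 ± 0.31 in controls, a log2 change of 1.64 ± 0.75 (SE) or 3.11-fold, with a limma adjusted p of 0.34. For 1368892_at it was 8.15 ± 0.28 against 6.52 ± 0.11, 3.1-fold, with a limma adjusted p of 0.5. Neither passed the threshold in the fit of all 9 arrays, whose shared spread includes IMO_6x replicate 1. Without that array the changes were the same size and the limma adjusted p were 0.019 and 0.0323. The replicate numbers of the control and IMO_1x arrays deviate together, and in a limma fit of those 6 arrays with the number as a block, chosen after seeing the data, the adjusted p were 0.0158 and 0.0172. Over all alternatives the adjusted p ran from 0.00926 to 0.634 for 1394908_at and from 0.0108 to 0.812 for 1368892_at, past the threshold in 5 of 20 and 5 of 19, and the direction was up in each one.

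After 6 sessions the log2 changes were 1.74 ± 0.75 (SE) for 1394908_at and 2.27 ± 0.93 for 1368892_at, with limma adjusted p of 0.146 and 0.126. These sizes rest on IMO_6x replicate 1. Without it they were 0.82 and 1.06, with adjusted p of 0.183 and 0.127, and over the alternatives the adjusted p ran from 0.0228 to 0.301 and from 0.0378 to 0.258. Without IMO_6x replicate 3, 1368892_at was at 3.16 with 0.0449. Ranked within its own array, 1394908_at stood at the 10, 12.2 and 16.1 percentile in control arrays, at 33.1, 25.6 and 32.7 after 1 session, and at 55.2, 25.9 and 26.6 after 6. All stressed arrays stayed above all control arrays on this scale too, while the 2 stressed groups overlapped. The scale does not depend on a common zero, but a rank moves with the other probe sets of its array. The lowest quartile of intensity was 160.2 on IMO_6x replicate 2 and 266.5 on control replicate 3. From 1 session to 6 the changes were 0.10 (limma adjusted p 0.952) and 0.64 (0.721), with overlap of the groups, and both turned sign without IMO_6x replicate 1 (-0.82 and -0.57). For 1368892_at the adjusted p ran from 0.0306 to 0.979 over the alternatives, and the lowest, with array weights, belongs to a change in the opposite direction (-0.94).

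The PACAP receptor gave different readings on its 4 probe sets. The brightest, Adcyap1r1 1374681_at, had intensities of 6834, 8103 and 6194 in control arrays, 8771, 12201 and 8049 after 1 session, and 11474.5, 16188 and 12029.7 after 6. All 3 arrays after 6 sessions lay above all control arrays, and the arrays after 1 session lay between, overlapping both groups. Its log2 level rose from 12.78 ± 0.20 (SD, n = 3) in controls to 13.68 ± 0.27 after 6 sessions, a change of 0.90 ± 0.23 (SE) or 1.87-fold, with a limma adjusted p of 0.0205. Relative to the median of all probe sets the change was 1.18.

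This rise did not depend on IMO_6x replicate 1, without which it was 0.99 with a limma adjusted p of 0.00433. It passed in 17 of 22 alternatives, with adjusted p from 0.00173 to 0.241. It was lost when arrays were centred on their medians (1.07, adjusted p 0.241), with the number as a block in the 2 groups (0.0792), without control replicate 1 (0.0652), without control replicate 3 (0.0866), and without IMO_6x replicate 2 (0.75, 0.0572). After 1 session its log2 level was 13.22 ± 0.32 (SD, n = 3), a change of 0.44 ± 0.23 with a limma adjusted p of 0.329. With the replicate number as a block in those 6 arrays the adjusted p was 0.0123, and over the alternatives it ran from 0.0123 to 0.905. That block was chosen after seeing the data, the labels state no pairing, and its fit called 5411 of all 14578 probe sets.

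The other 3 Adcyap1r1 probe sets passed in no comparison as reported. For 1368729_a_at the intensities were 1178, 488 and 436 in controls, 1432, 671 and 667 after 1 session, and 3277, 678 and 525 after 6, with log2 changes of 0.44 ± 0.70 and 0.73 ± 0.70 (SE) and limma adjusted p of 0.848 and 0.476. For 1387302_at they were 1528, 621 and 579, then 2247, 654 and 535, then 1144, 203 and 345, with changes of 0.17 ± 0.75 and -0.89 ± 0.75 and adjusted p of 0.974 and 0.413. Replicate 1 was the highest of each group on both probe sets, and the groups overlapped. The dim 1368730_a_at had 190.3, 124 and 171 in controls, 498, 69.5 and 117 after 1 session, and 1100.4, 150.2 and 409.9 after 6, with log2 changes of 0.04 ± 0.86 and 1.29 ± 0.86 (SE) and limma adjusted p of 1 and 0.34. The 3 replicates of a stressed group differed several-fold on it. Without IMO_6x replicate 1 the 6-session changes of the 3 probe sets were -0.08 for 1368729_a_at, -1.57 for 1387302_at (adjusted p 0.066) and 0.60 for 1368730_a_at (0.565). With array weights 1387302_at passed downward after 6 sessions (-1.09, 0.0385) and from 1 session to 6 (-1.08, 0.037), opposite to the rise of 1374681_at, and 1368730_a_at passed upward in both (1.23, 0.027, and 1.82, 0.00197). Over the alternatives the 6-session adjusted p ran from 0.186 to 0.902, from 0.0385 to 0.753 and from 0.027 to 0.565 for 1368729_a_at, 1387302_at and 1368730_a_at. Over the 9 arrays, 1374681_at correlated with 1368729_a_at, 1387302_at and 1368730_a_at at 0.14, -0.51 and 0.124, so the rise of Adcyap1r1 rests on 1 of its 4 probe sets. The change of 1374681_at after 6 sessions exceeded that of 1387302_at by 1.79 ± 0.97 (SE), with an exact two-sided permutation p of 0.3 over 3 against 3 arrays, where 0.1 is the smallest possible. Which transcript forms or ends the probe sets read was not analysed here.

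The AT1 receptors passed the test in no comparison. Agtr1a 1384240_at had intensities of 4819, 5358 and 3951 in control arrays, 3745, 6048 and 5654 after 1 session, and 1645, 6162 and 4403 after 6. The groups overlapped, with log2 changes of 0.11 ± 0.43 (SE) after 1 session (limma adjusted p 0.969) and -0.39 ± 0.43 after 6 (0.533), and the second changed sign without IMO_6x replicate 1 (0.16). The other Agtr1a probe set, 1369291_at, had 3031, 2208 and 1767 in controls, 2879.6, 2152 and 1966 after 1 session, and 108, 1821 and 863 after 6. IMO_6x replicate 1 was far below all other arrays. After 1 session the change was 0.01 ± 0.80 (limma adjusted p 0.999), and after 6 it was -1.97 ± 0.80 (0.0996), or -0.85 without IMO_6x replicate 1 (0.0632). Over the alternatives the adjusted p after 6 sessions ran from 0.0107 to 0.351, past the threshold in 2 of 21, 1 of them the fit without IMO_6x replicate 2 (-2.80, 0.0242). After 6 sessions the change of 1384240_at exceeded that of 1369291_at by 1.58 ± 0.62 (SE), with an exact two-sided permutation p of 0.1, the smallest possible, and 0.6 after adjustment over 18 such differences.

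Agtr1b 1369439_at read lower on every stressed array than the control median. Its intensities were 1015, 1053 and 769 in control arrays, 678, 528 and 578 after 1 session, and 822, 245 and 419 after 6. The arrays after 1 session lay below all control arrays, while IMO_6x replicate 1 reached into the control range. After 1 session the log2 change was -0.65 ± 0.47 (SE) with a limma adjusted p of 0.533, and after 6 sessions it was -1.06 ± 0.47 with 0.125. Without IMO_6x replicate 1 the latter was -1.50 with a limma adjusted p of 0.00501. It passed in 3 of 21 alternatives (adjusted p 0.00321 to 0.284), and the direction was down in all 21. AT1a and AT1b are close in coding sequence, probe sequences were not used here, and signal of one gene in the other's probe sets was not tested.

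The AT2 receptor had the lowest adjusted p of the members, on 1 of its 2 probe sets. Agtr2 1369711_at had intensities of 5292, 3495 and 3307 in control arrays, 3666, 1689 and 1318 after 1 session, and 916, 1118 and 784 after 6. After 6 sessions all 3 arrays lay below every other array of the series, and after 1 session replicate 1 overlapped the controls. Its log2 level fell from 11.95 ± 0.37 (SD, n = 3) to 9.89 ± 0.25, a change of -2.06 ± 0.38 (SE) or 4.18-fold lower, with a limma adjusted p of 0.0056. Relative to the median of all probe sets the change was -1.79. It passed in 21 of 21 alternatives (-2.20 to -1.65, adjusted p 3.54e-05 to 0.0429), which include every left-out array and both other scalings. IMO_6x replicate 1 lay between the other IMO_6x arrays, and without it the change was -2.05.

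After 1 session the log2 level of 1369711_at was 10.99 ± 0.76 (SD, n = 3), a change of -0.96 ± 0.38 (SE) with a limma adjusted p of 0.175. With the replicate number as a block in those 6 arrays the adjusted p was 0.00289, and without IMO_1x replicate 1 the change was -1.39 with 0.0461. The block was chosen after seeing the data, the labels state no pairing, and its fit called 5411 of all 14578 probe sets. Over the 21 alternatives the adjusted p ran from 0.00195 to 0.617, and the direction was down in all of them. Each same-numbered pair of arrays was lower after the session. From 1 session to 6 the change was -1.10 (limma adjusted p 0.0916), without overlap of the groups.

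The brighter Agtr2 probe set, 1398288_at, did not follow it after 6 sessions. Its intensities were 10208, 15522 and 9436 in control arrays, 5694, 8489 and 7692 after 1 session, and 4849, 16468 and 13403 after 6. All arrays after 1 session lay below all control arrays, whereas after 6 sessions replicate 1 was the lowest of the series and replicates 2 and 3 were in or above the control range. The log2 change was -0.67 ± 0.42 (SE) after 1 session (limma adjusted p 0.457) and -0.16 ± 0.42 after 6 (0.808). With the replicate number as a block the 1-session adjusted p was 0.0051, without IMO_6x replicate 1 it was 0.0453, and over 22 alternatives it ran from 0.0051 to 1. The same limits hold for this block, whose fit called 5411 of all 14578 probe sets and whose pairing the labels do not state. The 6-session value changed sign without IMO_6x replicate 1, to 0.38. From 1 session to 6 the change was 0.51 (0.455), or 1.05 without IMO_6x replicate 1 (0.0112, with 0.00446 to 0.812 over the alternatives).

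The log2 level of 1398288_at minus that of 1369711_at on the same array was 0.95, 2.15 and 1.51 in control replicates 1 to 3, 0.63, 2.32 and 2.53 after 1 session, and 2.38, 3.86 and 4.07 after 6. The difference was above the controls on all 3 arrays after 6 sessions. The change of the brighter exceeded that of the dimmer by 1.90 ± 0.63 (SE), with an exact two-sided permutation p of 0.1, the smallest possible, and 0.6 after adjustment over 18. Over the 9 arrays the 2 probe sets correlated at 0.008, against 0.936 for the pair of Adcyap1 and 0.842 for the pair of Agtr1a. The fall of Agtr2 after 6 sessions therefore rests on 1 probe set. The ratio of 3′ to 5′ actin also differed between these groups, and its part in the split of the probe sets was not tested.

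**Figure D2:**
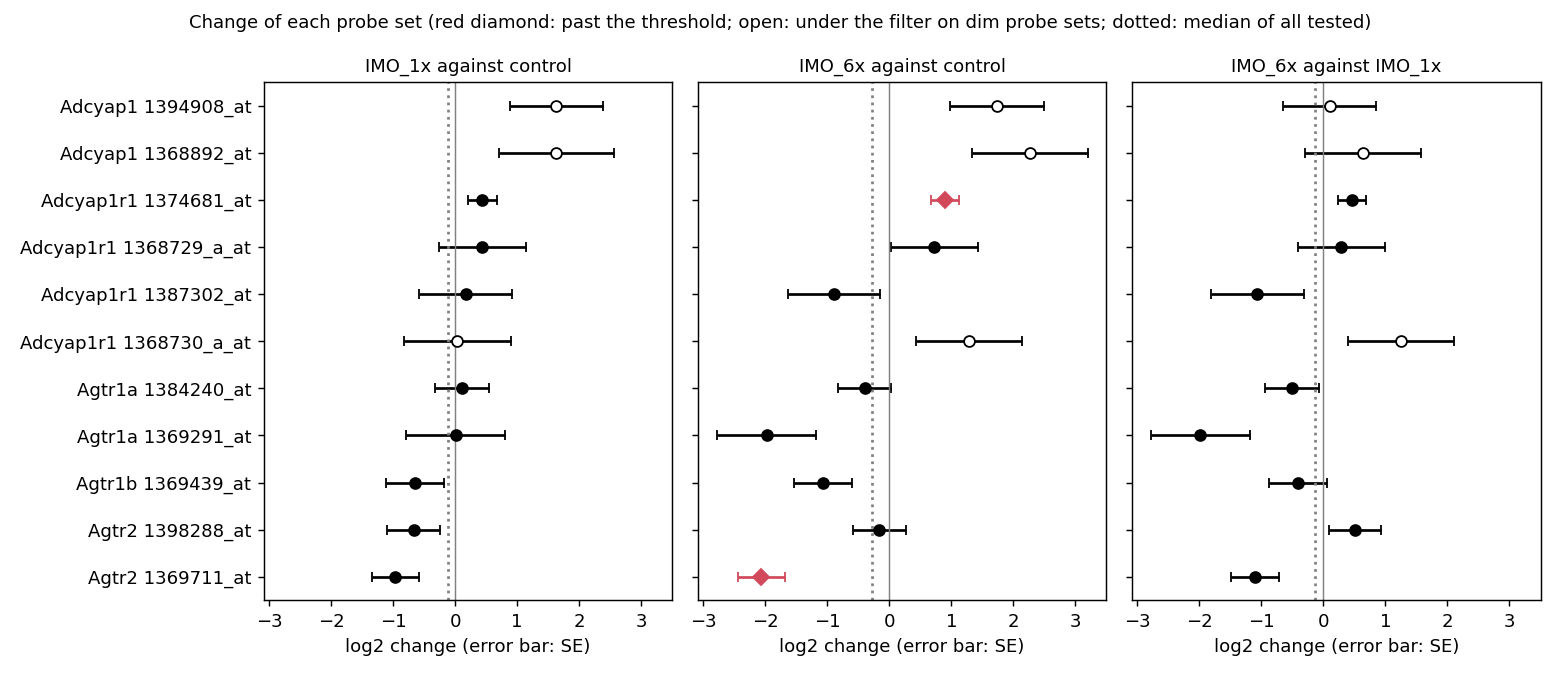
Log2 change (x axis, error bars SE) of the 11 probe sets (y axis) in the 3 comparisons, with open symbols for the 3 dim probe sets and a dotted line at the median of all probe sets tested. Only Adcyap1r1 1374681_at (0.90) and Agtr2 1369711_at (-2.06), both after 6 sessions, passed the adjusted threshold.

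**Figure D3:**
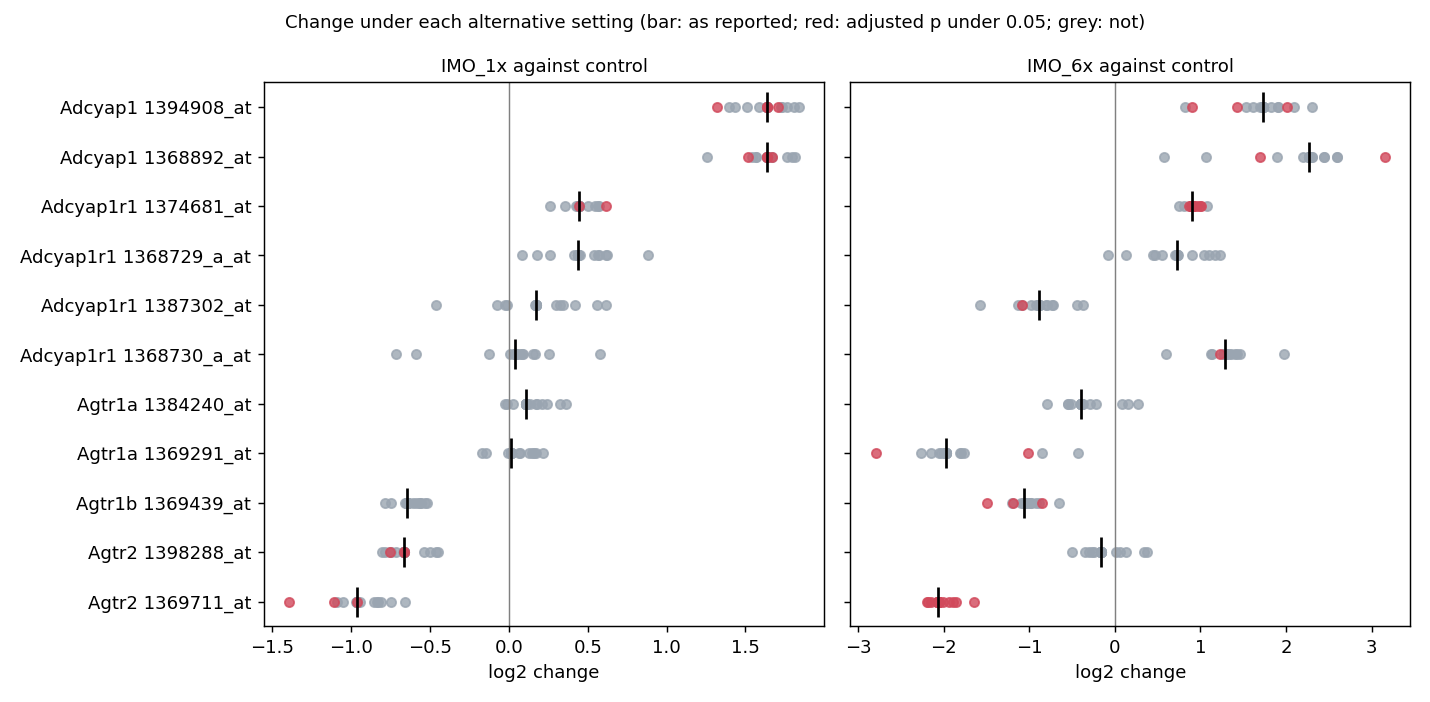
Log2 change (x axis) of the 11 probe sets (y axis) against control after 1 and after 6 sessions under each alternative setting (points), with the reported value as a bar and red for an adjusted p under 0.05. Agtr2 1369711_at after 6 sessions lies between -2.20 and -1.65, whereas Adcyap1 1368892_at runs from 0.58 to 3.16.

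Genes around these receptors were counted 1 probe set per gene, that with the highest mean level, over 10633 genes. After 1 session 4.08% of all genes rose and 4.87% fell, and after 6 sessions 9.64% rose and 14.8% fell. With the replicate number as a block in only the IMO_6x and control arrays, 0 genes of the 5 signalling lists rose and 0 fell. Each 6-session call against control named here was thus lost in that fit, which called only 417 of all 14578 probe sets. The labels do not pair these arrays, and they were not taken as pairs. Under median centring, all calls named below after 1 session and from 1 session to 6 were lost (limma adjusted p 0.126 to 0.521). Of the 6-session calls against control, Rapgef3, Prkar1a, Adcy4 and Prkce were kept. The others were lost, with adjusted p from 0.0886 (Vip) to 0.431 (Plcb1). That setting called 266 and 963 of all 14578 probe sets after 1 and after 6 sessions. Of the VIP and secretin family, the relatives of PACAP, 3 of 11 genes on the array were bright enough to test. Vip, the peptide closest to PACAP, rose after 6 sessions (log2 change 1.67 ± 0.36 SE, limma adjusted p 0.0099, passing in 20 of 22 alternatives) and was at 0.58 ± 0.36 after 1 (0.431). The list's median after 6 sessions was -0.79, against -0.23 for all genes, with Gipr and Ghrhr at -0.79 and -0.90 without passing. Without IMO_6x replicate 1, these receptors passed too, at -1.81 and -1.90, in a fit that called 6851 of all 14578 probe sets. The median after 1 session was 0.55, against -0.13.

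Of 16 genes for Gs signalling, adenylyl cyclases, PKA and Epac, 0 rose and 1 fell after 1 session, and 3 rose and 2 fell after 6. Rapgef3, the cyclic AMP sensor Epac1, fell by 1.16 on the log2 scale after 1 session (limma adjusted p 0.0486). That call was kept in 12 of 22 alternatives and lost on leaving out any single array but control replicate 2 or IMO_6x replicate 1 (adjusted p up to 0.226). The adenylyl cyclase Adcy9 had the largest 1-session change of the list, -2.01, just short of the threshold (limma adjusted p 0.0504). It passed under quantile normalization (0.0147), where Rapgef3 did not (0.163), and without IMO_6x replicate 1 (0.000764). After 6 sessions Adcy9 was at -1.53 (0.0645). Rapgef3 was then at -1.50 (0.00849), kept in 21 of 22. Prkaca, a catalytic subunit of PKA, fell by 1.11 after 6 sessions (0.0116), kept in 19 of 22. It was lost under median centring (0.327) and without control replicate 3 (0.0549). Prkar1a, a regulatory subunit of PKA, rose by 1.31 (0.00652, kept in 19 of 22), with values from 0.18 to 1.49 over the alternatives and an adjusted p of 0.148 under quantile normalization. Adcy4, an adenylyl cyclase, rose by 1.08 (0.0377), kept in 11 of 22 and lost on leaving out any array but IMO_6x replicates 1 and 2 (up to 0.11). Prkar1b, named after its value was seen, rose by 0.74 (0.0399), kept in 11 of 22 and lost on leaving out any array but control replicate 2 and IMO_6x replicate 1 (up to 0.151). The medians of the list were 0.07 after 1 session and -0.10 after 6. Without IMO_6x replicate 1 the counts were 2 up and 2 down after 1 session and 5 up and 3 down after 6. Beside them stand 3866 and 6851 of all 14578 probe sets called in that fit. With the replicate number as a block in only the 2 groups compared, 4 rose and 3 fell after 1 session. That fit called 5411 of all 14578 probe sets.

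Of 11 genes for Gq, phospholipase C, IP3 receptors and PKC, 1 rose after 1 session, and 1 rose and 2 fell after 6. Prkcd, a PKC isoform, rose after 1 session by 0.99 ± 0.25 (SE, limma adjusted p 0.0397), kept in 12 of 22 alternatives. It was lost under median centring (0.521) and with a replicate block in all 3 groups (0.077). Leaving out any array but IMO_6x replicates 1 and 2 lost it too (up to 0.165). After 6 sessions the phospholipase Plcb1 fell by 0.86 (0.0107), kept in 19 of 22. It was lost under median centring (0.431) and without control replicate 3 (0.055). Plcb3 fell by 1.07 (0.0145, kept in 17 of 22 and lost without control replicate 2 or 3, up to 0.0596), and the PKC isoform Prkce rose by 1.17 (0.0215, kept in 18 of 22 and lost without control replicate 1 or 3, up to 0.0887). The medians were 0.01 and -0.26. Without IMO_6x replicate 1 the counts were 1 up and 2 down after 1 session and 2 up and 2 down after 6. Of all 14578 probe sets, 3866 and 6851 were called in that fit.

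Of 6 tested genes for the ligand, enzymes and other receptors of the renin-angiotensin system, 0 passed after 1 session and 1 rose after 6. Ace, which makes angiotensin II from angiotensin I, rose by 1.14 ± 0.28 (SE) after 6 sessions against control (limma adjusted p 0.0188, kept in 16 of 22 alternatives), and was at 0.05 after 1 session (0.983). Its call against control was lost without control replicate 1, control replicate 3 or IMO_6x replicate 2 (adjusted p up to 0.0797). Against 1 session it rose by 1.09 (0.0413), kept in 10 of 22 and lost on leaving out any array but control replicate 2 and IMO_6x replicate 1 (up to 0.132). The list's medians were -0.04 and -0.32.

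Of 10 receptor partners and desensitizing genes, 2 rose after 1 session, and 1 rose and 1 fell after 6. Rgs4, which speeds the shut-off of Gq, rose by 1.58 ± 0.26 (SE, limma adjusted p 0.00665) after 1 session, kept in 21 of 22 alternatives and lost under median centring (0.182). Rgs2, of the same family, rose by 1.64 ± 0.38 (0.028), kept in 14 of 22, and was lost with a replicate block in all 3 groups (0.062) and without any single control or IMO_1x array (up to 0.132). After 6 sessions Rgs4 was lower than after 1, by -1.31 (0.0193, kept in 16 of 22 and lost without any single IMO_1x array, up to 0.0836), and was at 0.28 against control (0.476). Rgs2 rose by 1.26 after 6 sessions (0.0378), kept in 10 of 22. It was lost with that block (0.0643) and without any control array, IMO_1x replicate 2 or IMO_6x replicate 2 or 3 (up to 0.137). Agtrap, which binds AT1 and promotes its internalization, fell by 0.92 after 6 sessions (0.0196), kept in 14 of 22, and was lost under quantile normalization (0.106) and without control replicate 2, control replicate 3 or IMO_6x replicate 2 (up to 0.09). The medians were 0.05 and -0.31.

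**Figure D4:**
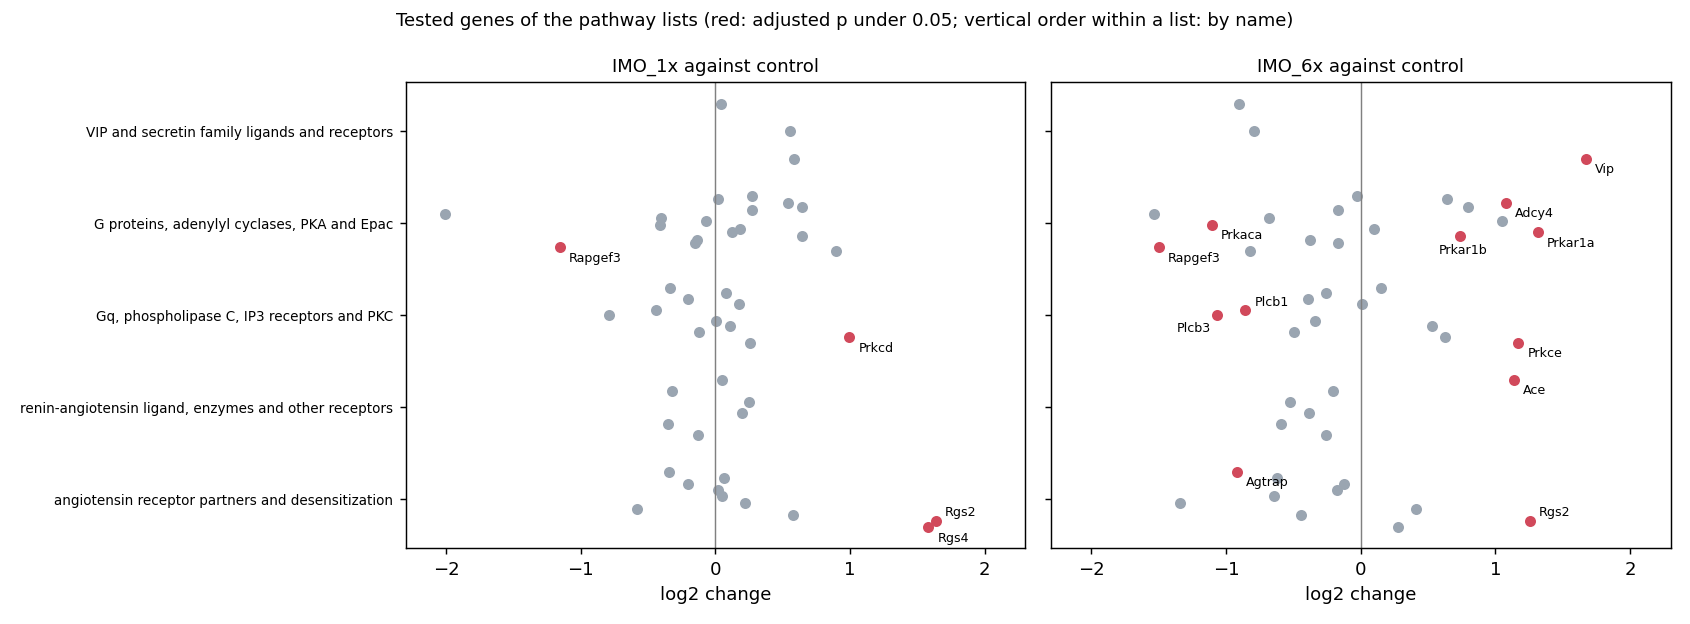
Log2 change (x axis) of each tested gene of the 5 signalling lists (rows), after 1 session and after 6 sessions against control, red where the adjusted p was under 0.05. After 1 session Rgs4 (1.58) and Rgs2 (1.64) are the highest points, and after 6 sessions Vip (1.67) is.

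From 1 session to 6, Prkar1a rose by 1.19 (limma adjusted p 0.0219, kept in 14 of 22 alternatives and lost without control replicate 3, IMO_1x replicate 2 or IMO_1x replicate 3, up to 0.0931). Under quantile normalization its change was 0.43 (0.108), and it ran from 0.28 to 1.34 over the alternatives. Rapgef4, the sensor Epac2, fell by 1.72 (0.022, kept in 15 of 22 and lost without any single IMO_1x array, up to 0.0959). For the members, the values in this comparison stood below those after 1 session without overlap on 2 of 11 probe sets, Agtr1a 1369291_at (-1.99, 0.135) and Agtr2 1369711_at. Without IMO_6x replicate 1 the change of Agtr1a 1369291_at was -0.87 (0.0778), without IMO_6x replicate 2 it was -2.81 (0.0427), and over the alternatives the adjusted p ran from 0.00685 to 0.386. The 9 others overlapped.

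The genes whose levels over the 9 arrays were most like each member's brightest probe set are given as a description, since the arrays share their groups and their quality. For Adcyap1 they were Tprn (Pearson r 0.956), Trim39 (0.955), Sema3f (0.949), Midn (0.947) and Egln2 (0.945), and without IMO_6x replicate 1 the r lay between 0.87 and 0.939. For Adcyap1r1 they were Crip1 (0.941), Foxk2 (0.935), Slc7a14 (0.934), Serpini1 (0.93) and Slc31a1 (0.927). For Agtr1b they were Itgal (0.98), Mro (0.977), Lrch1 (0.977), Armcx6 (0.975) and Zbtb45 (0.969). These 10 kept an r of at least 0.923 without IMO_6x replicate 1.

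For Agtr1a, Atox1 (0.983), Pfn2 (0.981), Ndrg4 (0.976), Prdx4 (0.975) and Tmem165 (0.974) were the closest, and without IMO_6x replicate 1 they were at 0.941, 0.938, 0.891, 0.867 and 0.86. For Agtr2 1398288_at they were Poglut1 (0.985), Slc49a4 (0.964), Rab2b (0.96), Tpr (0.943) and Med28 (0.939). An r above 0.9 was reached by 0.329% of genes for Adcyap1, 0.198% for Adcyap1r1, 2.26% for Agtr1a, 0.997% for Agtr1b and 0.235% for Agtr2.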

How the data were processed

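Adrenal medulla RNA was hybridised to 9 arrays, 3 per group. The authors deposited a table of linear intensity values, 1 for each probe set on each array. Per the labels, labelling and arrays were done by the manufacturer. How probes were summarised and background removed is not given in the sources used here. Groups came from the sample titles.

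The members and gene lists were chosen with earlier results of these data known. Values became log2(value + 16). The dimmest 30% of the 20826 probe sets with 1 symbol were left out, and 14578 were tested with limma 3.58.1 in R 4.3.3 (lmFit, eBayes with a trend, 9 arrays in 1 fit, 6 residual degrees of freedom). Tests were two-sided, with Benjamini-Hochberg adjustment and a threshold of 0.05. A further 436 probe sets had several symbols and 9780 none. The 3 dim members came from a fit with no filter. The fit was also run on simulated data with independent normal noise, of 1 spread per probe set on all 9 arrays. Those data held no aberrant array and no deviations shared between arrays, so the run cannot show how the fit handles them. The number of arrays limits the precision.

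Every member probe set is described, whatever its test. From each pathway list, up to 4 genes with the smallest adjusted p per comparison, and for likeness 5 genes per member, could be named. Deviations of same-numbered control and IMO_1x arrays correlated at 0.606, 0.459 and 0.233, all above the limit of 0.1 for a pairing, which the labels do not state. Those of IMO_6x and control arrays were 0.097, 0.016 and 0.148, and those of IMO_6x and IMO_1x arrays 0.108, 0.072 and 0.06, so these were not taken as pairs. Alternatives changed the filter, scaling, pseudocount, block, samples in the fit, array weights, probe set per gene and trend, and left out each array.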

Additional observations from a re-analysis of the deposited data

How the results depend on the processing

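All alternatives were run on each comparison. The array weights of limma stopped before full convergence, so those values are approximate. Counts of all probe sets past the threshold moved with the setting. After 1 session (1164, 577 up and 587 down) they were 266 under median centring (202 up and 64 down), 3830 with quantile normalization without IMO_6x replicate 1, 3554 with the 2 groups only, 5411 with a replicate block in the 2 groups and 5906 with array weights, and 402 to 3866 leaving out single arrays. Quantile normalization gave 560 up and 339 down. After 6 sessions (3514, 1285 up and 2229 down) they were 963 (626 up and 337 down) under median centring, 1886 with the 2 groups, 417 with their replicate block, 8272 with weights and 1620 to 6851 leaving out single arrays. Quantile normalization gave 1276 up and 1121 down. From 1 session to 6 (1506, 686 up and 820 down) they were 670 under quantile normalization (387 up and 283 down), 105 under median centring (68 up and 37 down), 2935 with quantile normalization without IMO_6x replicate 1, 0 with the 2 groups and with their replicate block, 6853 with weights and 0 to 4544 leaving out single arrays. A replicate block in all 3 groups gave 1042, 3608 and 1375, and moved no member past the threshold or back. The cause of these moves was not tested. Median centring moved the median of all changes from -0.28 to -0.10 after 6 sessions and from -0.12 to 0.01 after 1.

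Of the 8 tested members, after 1 session (0 passing) 1 passed with quantile normalization without IMO_6x replicate 1, 3 with the replicate block in the 2 groups, 2 with weights and 0 to 1 leaving out arrays. In the same order, 3830, 5411, 5906 and 402 to 3866 of all 14578 probe sets passed. After 6 sessions (2 passing) 1 passed under median centring, 1 with that block, 5 with weights, 1 with 1 probe set per gene (which leaves out Agtr2 1369711_at) and 1 to 3 leaving out arrays. In the same order, all probe sets passing were 963, 417, 8272, 2751 (of 10633) and 1620 to 6851. From 1 session to 6 (0 passing) 1 passed with quantile normalization without IMO_6x replicate 1, 4 with weights and 0 to 1 leaving out arrays. The counts of all probe sets in these settings are given above.

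Changes that turned sign are given next, with the range over left-out arrays. After 1 session, Adcyap1r1 1387302_at was at -0.0116 with weights (-0.46 to 0.61), Adcyap1r1 1368730_a_at at -0.59 (-0.72 to 0.58), Agtr1a 1384240_at at -0.0219 to 0.32 and Agtr1a 1369291_at at -0.17 to 0.22. After 6 sessions, Adcyap1r1 1368729_a_at ran from -0.0800 to 1.22. Agtr1a 1384240_at was at 0.27 with quantile normalization without IMO_6x replicate 1 and 0.0812 with weights (-0.79 to 0.16). Agtr2 1398288_at was at 0.0121 under median centring, 0.13 with quantile normalization without IMO_6x replicate 1 and 0.34 with weights (-0.50 to 0.38). Between 6 sessions and 1, Adcyap1 1394908_at was at -0.29 with quantile normalization without IMO_6x replicate 1 and -0.42 with weights (-0.82 to 0.67), Adcyap1 1368892_at at -0.94 with weights, past the threshold in the opposite direction (adjusted p 0.0306, range -0.57 to 1.52), Adcyap1r1 1368729_a_at at -0.11 and -0.31 (-0.52 to 0.78) and Agtr1a 1384240_at at 0.0942 with quantile normalization without IMO_6x replicate 1 (-0.90 to 0.0471). Agtr2 1369711_at and Adcyap1r1 1374681_at kept their direction after 6 sessions under every alternative run. Detection calls were not used here, so how far the dim probe sets lie above background is unknown.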
